A study of Homo sapiens with 8 samples.

Results

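The 42 genes described here encode proteins of the G2 phase and of mitosis: 9 kinases and phosphatases, 3 cyclins, 6 checkpoint and anaphase proteins, 6 kinesins, 5 kinetochore and centromere proteins, 3 chromosomal passenger proteins, 7 spindle and cytokinesis proteins, and TOP2A, MKI67 and FOXM1. They were chosen by name, through Entrez gene numbers matched to symbols, out of 22653 entries listed over 8 libraries. All 42 were found, and all 42 were among the 17503 entries that passed the filter on low counts. The values come from poly(A) RNA of U937, a human monocytic cell line, that is SLC19A1-/- in every group. SLC19A1 is the reduced folate carrier. One line carried tet-SLC7A1-Flag and the other tet-SLC7A2-Flag, doxycycline-inducible and Flag-tagged transporters of arginine and lysine, and each line was measured without doxycycline (no dox) and after 24 h in 1 µg/mL doxycycline (dox). Each of the 4 groups holds 2 libraries, numbered 1 and 2. The labels do not say that these came from separate cultures, so a p-value here reflects the spread among these libraries alone, and that spread may be technical. Each transporter was carried by 1 line, and no line without a construct received doxycycline, so the drug and the transporter cannot be told apart, nor can the transporter and the line.

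Entry into mitosis is driven by CDK1 bound to B-type cyclins, which CDC25 phosphatases switch on. PLK1 and the Aurora kinases then build the spindle, the kinetochores attach chromosomes to it, and the spindle checkpoint holds back the anaphase-promoting complex, an E3 ubiquitin ligase that CDC20 activates, until attachment is complete. Transcripts of these genes accumulate in late S phase and G2 and are low in G1, so in a bulk culture a different share of cells in G2 or mitosis and a different amount of transcript per cell cannot be told apart.

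The shared timing of these genes is known to run through 2 promoter elements. The CHR (cell cycle genes homology region) is bound by the DREAM complex in resting cells and by MuvB with B-MYB and FOXM1 in cycling cells, and CCAAT boxes are bound by NF-Y. A RefSeq promoter window of 300 bases on GRCh38.p14, from 250 before to 50 after the start, was found for 35 of the 42 members. Its CHR core was searched as TTTGAA or TTCGAA, its CCAAT box as CCAAT and an E2F site as GCGGGAA, each on both strands and with overlaps counted. The CHR core occurred in 26 of 35 member windows, or 74.3%, and in 16.6% of all 27305 windows. CCAAT occurred in 77.1% against 35.7%, both elements together in 62.9% against 6.58%, and the E2F letters in 11.4% against 6.56%. Within 50 bases on either side of the start the CHR core was in 62.9% of member windows and in 5.05% of all. The 7 promoters printed next belong to members whose values differed in 1 direction throughout between the lines or with dox. PLK1, CCNB1, CDC20, CENPA and DLGAP5 were above the other line in every library of the SLC7A2 line, against 4.35% of all entries. CDC20 and PRC1 were above their partner in all 4 pairs with dox, against 7.70% of all entries, and CDC25C was below in all 4, against 7.07%. Members that differed in 1 direction by replicate number only are not printed. Each runs 5′ to 3′ on the strand of the gene, from 100 bases before to 20 after the start, with CHR cores and CCAAT boxes in capitals.
CCNB1, chr5:69167050-69167169, plus strand: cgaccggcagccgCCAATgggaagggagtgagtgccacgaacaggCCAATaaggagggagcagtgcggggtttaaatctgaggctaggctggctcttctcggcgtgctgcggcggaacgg
CDC20, chr1:43358881-43359000, plus strand: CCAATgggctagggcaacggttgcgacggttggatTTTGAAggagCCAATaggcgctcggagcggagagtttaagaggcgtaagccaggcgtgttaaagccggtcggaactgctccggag
CDC25C, chr5:138338336-138338455, minus strand: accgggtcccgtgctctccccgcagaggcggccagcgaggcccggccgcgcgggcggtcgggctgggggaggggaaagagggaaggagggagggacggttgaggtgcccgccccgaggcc
CENPA, chr2:26785956-26786075, plus strand: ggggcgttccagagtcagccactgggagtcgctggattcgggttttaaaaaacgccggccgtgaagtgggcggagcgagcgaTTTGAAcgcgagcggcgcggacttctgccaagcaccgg
DLGAP5, chr14:55191566-55191685, minus strand: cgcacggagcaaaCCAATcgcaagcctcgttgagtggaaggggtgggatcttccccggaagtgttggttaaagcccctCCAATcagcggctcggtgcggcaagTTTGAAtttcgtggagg
PLK1, chr16:23678789-23678908, plus strand: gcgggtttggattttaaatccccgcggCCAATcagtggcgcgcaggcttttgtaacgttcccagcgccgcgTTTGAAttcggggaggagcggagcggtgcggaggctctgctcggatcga
PRC1, chr15:90994516-90994635, minus strand: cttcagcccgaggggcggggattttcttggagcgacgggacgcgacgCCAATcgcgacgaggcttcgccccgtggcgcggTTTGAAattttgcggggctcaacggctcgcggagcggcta
CDC20, PLK1, DLGAP5 and PRC1 hold both elements in the printed stretch, CCNB1 holds only CCAAT boxes and CENPA only the CHR core. In CDC25C neither occurred, in the printed stretch or in the whole window, which says only that these letters are not there. These matches describe letters and show no binding.

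Libraries held 17309132 to 18441833 expected counts, which puts a floor of 3 counts at 0.163 to 0.173 CPM. This floor covers counting error only. In every library 15 of 18 monocytic and myeloid markers exceeded 1 TPM, while MPO, CSF1R and CD14 stayed at or under 0.53 TPM. The 6 T cell markers summed to 0.31 TPM at most. The 4 B cell markers summed to 21.43 to 34.47 TPM, mostly through CD79A at 20.57 to 34.05 TPM. The summed fibroblast markers were 0.72 to 2.11 TPM in 7 libraries and 14.83 TPM in SLC7A2 no dox 2. SLC19A1 transcripts were present at 40.87 to 59 TPM in all 8 libraries, and such a level does not show whether the reading frame is intact. On the first principal component, with 37.4% of the variance, both SLC7A2-line libraries numbered 2 lay apart, at 36.2 and 50.8 against -36.7 to -5.01 for the other 6. The inducible SLC7A1 entry reached 845 CPM in SLC7A1 dox 1 and 367 CPM in SLC7A1 dox 2. The SLC7A2 entry reached 264 CPM in SLC7A2 dox 1 and 4947 CPM in SLC7A2 dox 2.

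Mitotic transcripts were abundant in all 8 libraries, as TPM, which allows genes to be compared per length. Their TPM summed to 2576 in SLC7A1 no dox 1, 2933 in SLC7A1 no dox 2, 3129 in SLC7A1 dox 1, 2876 in SLC7A1 dox 2, 3091 in SLC7A2 no dox 1, 3203 in SLC7A2 no dox 2, 3101 in SLC7A2 dox 1 and 3626 in SLC7A2 dox 2. The lowest and the highest library thus differed by 1.41-fold, and the other 6 lay between 2876 and 3203 TPM. By mean TPM, 11 members were at or above 100, 28 between 10 and 100, and 3 under 10. The order of the 42 levels was clear at its ends only: of 41 steps between neighbours, 2 separated genes whose library values did not overlap, that from PTTG1 to TPX2 and that from ECT2 to CENPE.

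At the top stood CDC20, the activator of the anaphase-promoting complex, at 396 ± 73.1 TPM (mean and SD, n = 8 libraries of all 4 groups). PTTG1, or securin, which holds separase inactive, followed at 277 ± 12.8 TPM. TPX2, which brings Aurora A to spindle microtubules, had 198 ± 21.7 TPM, CCNB2 181 ± 10.1 TPM and PLK1 179 ± 29.01 TPM. The least abundant were CDC25C at 7.34 ± 1.62 TPM, ECT2, an activator of RhoA at the cleavage furrow, at 5.44 ± 2.17 TPM, and CENPE, a kinetochore motor, at 0.846 ± 0.896 TPM. CENPE was the one member without a read in some library: SLC7A1 no dox 1 listed none, and the others held 23.8 to 325 expected counts. The fitted fold changes of CENPE given further on are no bound, and all but that within the SLC7A2 line draw on that library. The stable members were PTTG1, KIF2C, a kinesin that depolymerises microtubules, AURKB, CCNB2 and BIRC5, also called survivin, whose coefficients of variation over 8 libraries were 4.60%, 5.27%, 5.52%, 5.59% and 6.13%. Besides CENPE, ANLN, which scaffolds the contractile ring, varied most, at 47.1%, followed by ECT2 at 39.8% and CENPF, a large kinetochore protein, at 28.6%.

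**Figure D1:**
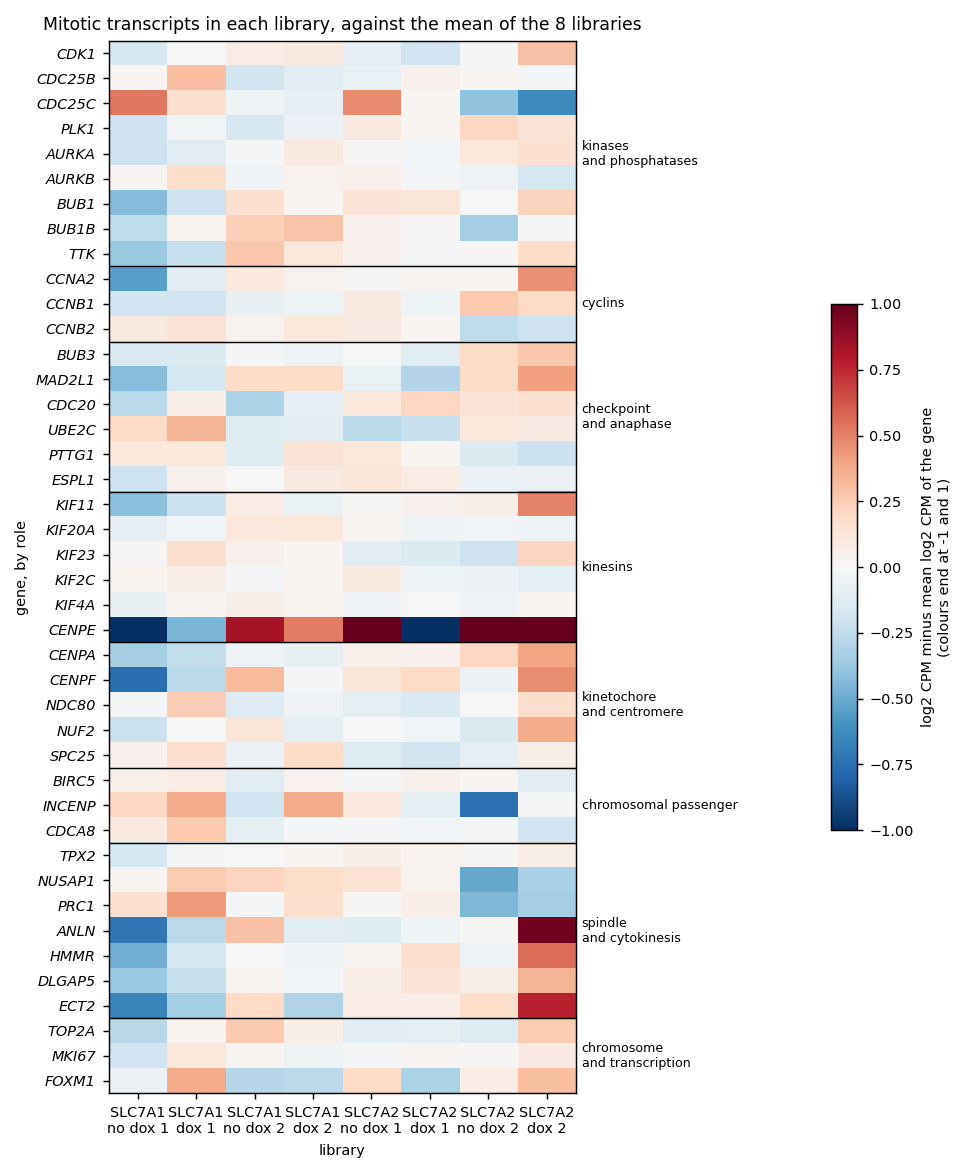
Each row is 1 of the 42 genes and each column 1 library, with no dox and dox of the same line and number side by side. Colour gives log2 CPM minus the gene's mean over 8 libraries, and the first column is mostly blue (22 of 42 genes at their lowest) and the last mostly red (17 of 42 at their highest).

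The member median stood apart in 2 of the libraries. Expressed as log2 CPM relative to each gene's own mean, the member median was -0.18 in SLC7A1 no dox 1 and 0.15 in SLC7A2 dox 2, while in the other 6 libraries it lay between -0.0037 and 0.0335. SLC7A1 no dox 1 held the lowest value of 22 members, or of 16.2% of all 17503 entries. SLC7A2 dox 2 held the highest of 17 members, or of 22.1% of all entries. The colour map of all members by library shows these as the first and last columns. Not every member took part: CDC25C, the phosphatase that activates CDK1, was lowest in SLC7A2 dox 2, at 5.22 TPM, and PRC1, which bundles midzone microtubules, was highest in SLC7A1 dox 1, at 103 TPM.

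With doxycycline, taken across both lines, no mitotic gene passed the test. Of 42 members, 37 had a fitted log2 fold change above 0, against 51.7% of all 17503 entries, with a member median of 0.07 and a median of 0.0054 over all entries. By edgeR's quasi-likelihood test 0 of 42 members and 0% of all entries were called at an adjusted p of 0.05, and 0 members had an unadjusted p under 0.05 (1 by DESeq2, which also called 0 members). The same numbers within a line pair the libraries. With these 4 pairs as a block edgeR called 0.0171% and DESeq2 0.606% of all entries, but again 0 members. With the block, 3 members had an unadjusted p under 0.05 by edgeR and 6 by DESeq2, against 1020 and 1188 of all 17503 entries. The member median did not come from every pair. It was 0.17 in SLC7A1 pair 1 with 39 of 42 members above 0, and 0.0049 in SLC7A1 pair 2 with 22. In the SLC7A2 line it was -0.03 in pair 1 with 14 members above 0, and 0.17 in pair 2 with 30. The pairs with a shift of this size are those that contain SLC7A1 no dox 1 and SLC7A2 dox 2. Leaving out SLC7A1 no dox 1 brought the member median to 0.034 with 31 members above 0, and leaving out SLC7A2 dox 2 brought it to 0.042 with 28. SLC7A2 dox 2 is also the library with the highest SLC7A2 construct level, and the part of that level in the member values was not tested.

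CDC20 and PRC1 were above their no-dox partner in all 4 pairs, 2 of 42 members against 7.70% of all entries. CDC25C was below in all 4, 1 member against 7.07%. In 21 members 3 of the 4 pairs were above, in 16 members 2, and in 2 members 1. CDC20, at chr1:43358981-43363203, had 292 and 313.66 TPM without dox and 399.55 and 344 TPM with dox in the SLC7A1 line. In the SLC7A2 line it had 413 and 450.3 TPM without and 455 and 498 TPM with dox. Its groups therefore did not overlap in either line, yet the lines differed more than the treatments did. The fitted log2 fold change of CDC20 was 0.17 ± 0.08 (SE; adjusted p = 0.9999 with edgeR, 0.837 with the replicate block, 0.314 with DESeq2 and the block). In the SLC7A1 line PRC1 had 79.0 and 76.8 TPM without and 103 and 82.7 TPM with dox. In the SLC7A2 line it had 78.0 and 60.5 TPM without and 82.7 and 71.2 TPM with dox. These values overlap between no dox and dox within the SLC7A2 line, and the log2 fold change was 0.16 ± 0.14. With the replicate block it was 0.156 ± 0.055 (adjusted p = 0.837 with edgeR and 0.265 with DESeq2). CDC25C went from 9.13 and 7.23 to 7.54 and 6.71 TPM in the SLC7A1 line and from 9.93 and 5.48 to 7.48 and 5.22 TPM in the SLC7A2 line, with a log2 fold change of -0.30 ± 0.25. With the replicate block the fold change of CDC25C was -0.28 ± 0.11 (adjusted p = 0.837 with edgeR and 0.770 with DESeq2). On the log2 CPM scale the CDC25C values with dox differed from their partners by -0.38 and -0.04 in the SLC7A1 line. In the SLC7A2 line they differed by -0.45 and -0.23. Number 2 differed from number 1 by -0.57 (no dox) and -0.23 (dox) for the SLC7A1 line, and by -0.87 (no dox) and -0.65 (dox) for the SLC7A2 line.

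**Figure D2:**
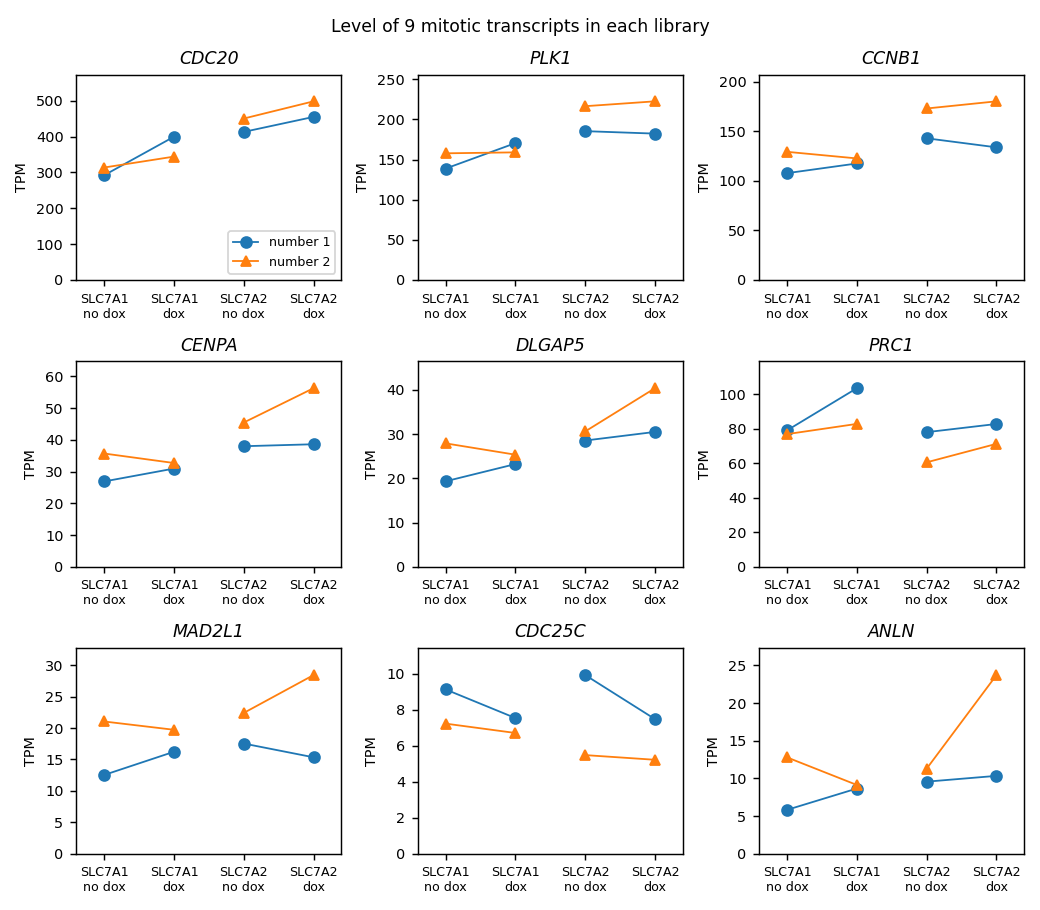
TPM of 9 members in each library, 1 panel per gene, with axes from 0; lines join no dox and dox libraries of the same line and number. CDC20, PLK1, CCNB1, CENPA and DLGAP5 are higher in all 4 SLC7A2-line libraries than in any SLC7A1-line library, while ANLN is set apart by 1 library at 23.7 TPM.

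By role, the kinases and phosphatases were above 0 with dox in 8 of 9 members with a median log2 fold change of 0.06. CDK1 had 0.10 ± 0.12, PLK1 0.04 ± 0.08, AURKA, the kinase of centrosome maturation, 0.06 ± 0.09, and BUB1, a checkpoint kinase, 0.06 ± 0.13. Among the cyclins CCNA2, the cyclin of S phase and G2, had 0.20 ± 0.15 and CCNB1 -0.04 ± 0.09. Of the checkpoint and anaphase proteins 5 of 6 were above 0, with MAD2L1, a spindle checkpoint protein, at 0.07 ± 0.19 and UBE2C, the ubiquitin-conjugating enzyme of the anaphase-promoting complex, at 0.05 ± 0.15. In this fit, which has no block, each of the values just given was smaller than 1.5 SE. CDC20, described above, is not among them. With the replicate block CCNA2 had 0.21 ± 0.10 (adjusted p = 0.837 with edgeR). Kinesins were above 0 in 4 of 6 members, with KIF11, which pushes spindle poles apart, at 0.13 ± 0.15, KIF20A, a motor of cytokinesis, at -0.01 ± 0.08 and KIF2C at -0.03 ± 0.08. All 5 kinetochore and centromere genes (median 0.12), all 3 chromosomal passenger genes (0.03), all 7 spindle and cytokinesis genes (0.11) and all 3 of TOP2A, MKI67 and FOXM1 (0.08) were above 0. Members of the complex formed by survivin, INCENP and borealin (CDCA8) differed among themselves, from 0.02 ± 0.10 for CDCA8 and 0.03 ± 0.09 for BIRC5 to 0.29 ± 0.18 for INCENP. The highest log2 fold changes besides INCENP were those of CENPE, 0.34 ± 0.98, where the fit rests on a library at 0, and ANLN, 0.27 ± 0.29. CENPF had 0.14 ± 0.21, TOP2A, the topoisomerase that untangles sister chromatids, 0.12 ± 0.13, MKI67, the proliferation marker Ki-67, 0.08 ± 0.08, and FOXM1, the transcription factor of this gene set, 0.08 ± 0.18. Each of these members had an adjusted p of 0.9999 with edgeR.

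**Figure D3:**
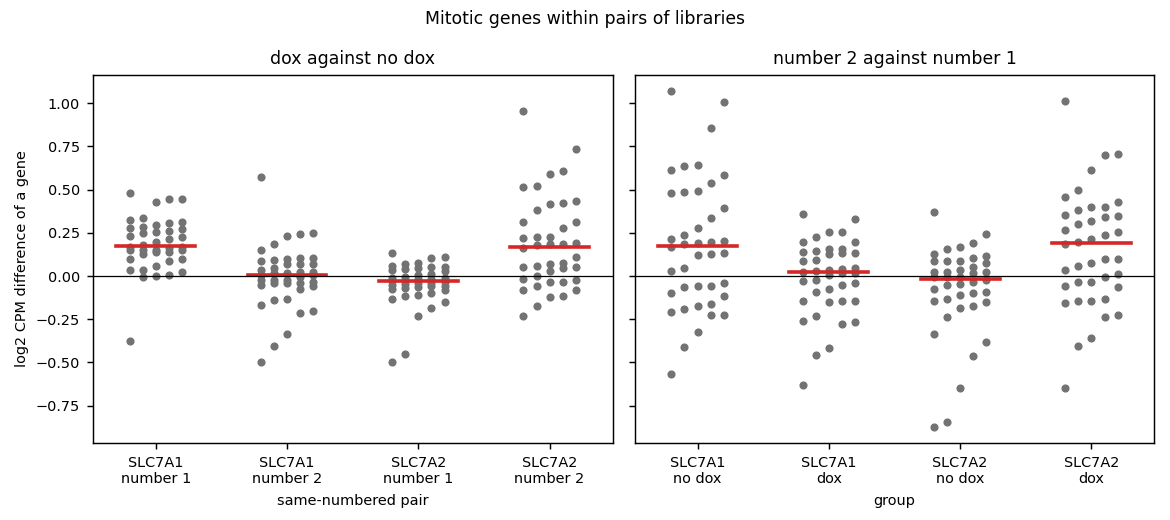
Each point is the log2 CPM difference of 1 gene between 2 libraries, at left dox against no dox in 4 same-numbered pairs and at right number 2 against number 1 in 4 groups, and red bars are medians over all 42 genes (CENPE has no point). The medians are 0.17, 0.0049, -0.03 and 0.17 at left and 0.18, 0.03, -0.01 and 0.19 at right.

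Within the SLC7A1 line 35 of 42 members had a log2 fold change above 0 with dox, with a median of 0.09, against 49.2% of all entries and a median of -0.0027. edgeR called 0% of entries and 0 members, and 1 member, CDC20, had an unadjusted p under 0.05, against 222 of all 17503 entries. DESeq2 called 0 members too. With the block, 2 members were under 0.05 by edgeR and 2 by DESeq2, against 744 and 698 of all entries. CDC20 had a log2 fold change of 0.28 ± 0.11 (adjusted p = 1 with edgeR and 0.0776 with DESeq2 and the replicate block). INCENP was highest, at 0.36 ± 0.27, and FOXM1 had 0.26 ± 0.26. CDC25C at -0.23 ± 0.37, ECT2 at -0.15 ± 0.33 and ANLN at -0.07 ± 0.39 were lowest. Without SLC7A1 no dox 1 the member median was 0.0005 with 21 members above 0. That library had the lowest member values of all, so a lower median without it followed from these same values. Without SLC7A1 no dox 2 the member median was 0.17 with 40 above 0.

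Within the SLC7A2 line 29 of 42 members were above 0 with a median of 0.06, against 51.3% of all entries and a median of 0.007. Again 0% of entries and 0 members were called by edgeR, 0 members had an unadjusted p under 0.05, and DESeq2 called 0 members. With the block, 0 members were under 0.05 by edgeR and 1 by DESeq2, against 619 and 602 of all entries. ANLN, which had 9.56 and 11.3 TPM without and 10.3 and 23.7 TPM with dox, was highest at 0.60 ± 0.39. CENPE followed at 0.43 ± 1.45, and HMMR, a spindle assembly protein, at 0.39 ± 0.21 had 20.3 and 20.7 TPM without and 22.9 and 33.5 TPM with dox. In both ANLN and HMMR the library numbered 2 carried the difference. CDC25C at -0.37 ± 0.38, FOXM1 at -0.10 ± 0.26 and CDCA8 at -0.10 ± 0.15 were lowest. Without SLC7A2 dox 2 the member median was 0.0052 with 22 above 0. Without both SLC7A2-line libraries numbered 2 it was -0.03 with 14 above 0.

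The effect of dox did not differ detectably between the lines for any mitotic gene. The difference (SLC7A2 line minus SLC7A1 line) had a member median of -0.07 with 17 of 42 above 0, against 51% of all entries, and 0% of entries and 0 members were called by edgeR. No member had an unadjusted p under 0.05 with edgeR, and DESeq2 called 0 members. With the block, 0 members were under 0.05 by edgeR and 2 by DESeq2, against 519 and 425 of all entries. For PLK1, AURKB, CCNB1, ESPL1, which encodes separase, KIF20A, KIF2C and CDCA8 both pairs of the SLC7A1 line were above 0 and both pairs of the SLC7A2 line below, on the log2 CPM scale, 7 of 42 members against 5.07% of all entries. The differences of these 7 members ran from -0.23 ± 0.21 for CDCA8 to -0.07 ± 0.18 for KIF20A, each with an adjusted p of 1.000 by edgeR, and on the TPM scale 0 members had this pattern. The largest differences were those of ANLN, 0.67 ± 0.56, ECT2, 0.49 ± 0.47, and CENPF, 0.32 ± 0.45, and the lowest those of FOXM1, -0.36 ± 0.37, CDCA8, and CDC20, -0.22 ± 0.16. FOXM1 shows how wide the spread was: in the SLC7A1 line it had 31.5 and 29.6 TPM without and 46.1 and 28.5 TPM with dox. For the SLC7A2 line the values were 40.6 and 40.99 TPM without and 29.5 and 51.4 TPM with dox. High and low libraries thus occurred in both dox groups.

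Between the lines, with no dox and dox joined, mitotic genes went in both directions. In the SLC7A2 line 23 of 42 members were above the SLC7A1 line, with a median log2 fold change of 0.05, against 49.5% of all entries and a median of -0.0037. edgeR called 0% of entries and 0 members. An unadjusted p under 0.05 occurred in 8 of 42 members and in 2242 of all 17503 entries. DESeq2 without a block called 1.99% of entries and 1 member, CDC20. In 5 members, PLK1, CCNB1, CDC20, CENPA and DLGAP5, every SLC7A2-line library was above every SLC7A1-line library, against 4.35% of all entries. In 0 members was every SLC7A2-line library below, against 5.11% of entries. As TPM 9 members did not overlap, against 10.2% of all entries, and AURKA, ESPL1, TPX2 and HMMR joined the 5. On log2(TPM + 1) the median of all entries was itself 0.09 higher in the SLC7A2 line.

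CDC20 had the lowest p of these, with 292 to 399.55 TPM in the SLC7A1 line and 413 to 498 TPM in the SLC7A2 line. Its log2 fold change was 0.30 ± 0.08 (adjusted p = 0.315 with edgeR and 0.0123 with DESeq2). PLK1, at chr16:23678889-23690367, had 139, 158, 170.4 and 159 TPM in the SLC7A1 line and 185, 216, 182 and 222 TPM in the SLC7A2 line. Its log2 fold change of 0.23 ± 0.08 had an adjusted p of 0.344 with edgeR and 0.0916 with DESeq2. CCNB1, the cyclin that brings CDK1 into mitosis, had 108 to 129 TPM in the SLC7A1 line and 134 to 180.1 TPM in the SLC7A2 line, a log2 fold change of 0.26 ± 0.09 (adjusted p = 0.345 with edgeR and 0.126 with DESeq2). The library values of these 3 regulators of mitotic entry and exit did not overlap between the lines. None of them passed edgeR's test without replicate number. With number as a block the adjusted p by edgeR was 0.0734 for CDC20, 0.131 for PLK1 and 0.0776 for CCNB1. In edgeR, CDC20 and PLK1 passed only with a GC correction added to the block. CENPA, the histone H3 variant of centromeres, had 26.9 to 35.7 TPM in the SLC7A1 line and 38.0 to 56.3 TPM in the SLC7A2 line, with a log2 fold change of 0.35 ± 0.12 (adjusted p = 0.335 with edgeR). DLGAP5, a microtubule-binding protein of the spindle, had 19.3 to 27.9 and 28.5 to 40.4 TPM, and 0.29 ± 0.11. In each of the 5 genes the gap between the highest SLC7A1-line and the lowest SLC7A2-line library was smaller than the range within either line. The gap was 13.45 TPM for CDC20, 11.8 for PLK1, 4.52 for CCNB1, 2.3 for CENPA and 0.64 for DLGAP5.

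The highest values between the lines were those of CENPE at 1.44 ± 0.99, which rests on few counts, ECT2 at 0.54 ± 0.23 and ANLN at 0.41 ± 0.29. ECT2 had 2.92, 5.85, 3.98 and 3.85 TPM in the SLC7A1 line and 5.26, 6.21, 5.44 and 10.0 TPM in the SLC7A2 line. These overlap through SLC7A1 no dox 2. The lowest were INCENP at -0.35 ± 0.18, PRC1 at -0.35 ± 0.14 and NUSAP1, a microtubule-bundling protein, at -0.31 ± 0.15. NUSAP1 had 117 to 149 TPM in the SLC7A1 line, 138 and 132 TPM in the SLC7A2 libraries numbered 1, and 94.9 and 117 TPM in those numbered 2. In TPM only SLC7A2 no dox 2 thus lay below the SLC7A1 line. As log2 CPM relative to the gene's mean, SLC7A2 no dox 2 and dox 2 had -0.51 and -0.32, and the other libraries 0.02 to 0.25. The partners of CDC20, PLK1 and CCNB1 stood elsewhere: CDK1 had 0.00 ± 0.12, CCNB2 -0.18 ± 0.10, AURKA 0.12 ± 0.09, AURKB -0.10 ± 0.09, MAD2L1 0.12 ± 0.19 and UBE2C -0.15 ± 0.15. Further values were 0.25 ± 0.15 for CCNA2, 0.22 ± 0.13 for BUB1, 0.31 ± 0.15 for KIF11, 0.31 ± 0.21 for CENPF, -0.05 ± 0.08 for KIF20A, -0.03 ± 0.09 for BIRC5, -0.04 ± 0.13 for TOP2A, 0.05 ± 0.08 for MKI67 and 0.12 ± 0.18 for FOXM1. By role, 5 of 9 kinases and phosphatases, 2 of 3 cyclins and 4 of 6 checkpoint and anaphase genes were above 0. All 3 chromosomal passenger genes were below 0. The summed monocytic and myeloid markers were at 5182 and 5174 TPM in the SLC7A2 libraries numbered 1, at 3599 and 3227 TPM in those numbered 2, and at 4444 to 5723 TPM in the SLC7A1 line. Their part in these values was not tested. Without SLC7A1 no dox 1 the member median between the lines was -0.0005 with 21 members above 0.

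By replicate number, too, mitotic genes went in both directions. Of 42 members 27 were above 0 for number 2 against number 1, with a median of 0.06, against 49.5% of all entries and a median of -0.0043. edgeR called 1 of 17503 entries, or 0.00571%, and 0 members. An unadjusted p under 0.05 occurred in 10 of 42 members and in 3374 of all entries. DESeq2 called 6.32% of entries and 2 members, MAD2L1 higher and PRC1 lower in number 2. In all 4 groups number 2 was above number 1 for 10 members, CDK1, AURKA, CCNA2, CCNB1, BUB3, MAD2L1, KIF11, CENPA, ANLN and ECT2, against 14.7% of all entries. It was below in all 4 groups for 6 members, CDC25C, AURKB, CCNB2, KIF2C, CDCA8 and PRC1, also against 14.7%.

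MAD2L1 had 12.5 and 21.0 TPM in the SLC7A1 line without dox (numbers 1 and 2), 16.2 and 19.7 TPM with dox, and in the SLC7A2 line 17.5 and 22.4 TPM without and 15.3 and 28.4 TPM with dox. All 4 libraries numbered 2 thus exceeded all 4 numbered 1, and the log2 fold change was 0.48 ± 0.10 (adjusted p = 0.144 with edgeR and 0.00241 with DESeq2). PRC1, described above by library, had -0.32 ± 0.08 (adjusted p = 0.148 with edgeR and 0.00576 with DESeq2). CDC25C had the lowest value, -0.59 ± 0.15 (adjusted p = 0.151 with edgeR), about as far from 0 as ANLN at 0.58 ± 0.19, and INCENP had -0.29 ± 0.17. CENPE had 2.19 ± 0.99. Of the other core genes CDK1 had 0.22 ± 0.10, CCNA2 0.31 ± 0.12, CCNB1 0.17 ± 0.07, AURKA 0.17 ± 0.07, KIF11 0.28 ± 0.10, CENPF 0.35 ± 0.19, TOP2A 0.22 ± 0.11 and BUB1 0.19 ± 0.12. Values within 1 SE of 0 were those of PLK1, CDC20, UBE2C, KIF20A, MKI67 and FOXM1, and BIRC5 had -0.08 ± 0.08. Neither the member median nor these members separate a biological from a technical difference between numbers, since the labels say nothing of what a number stands for.

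**Figure D4:**
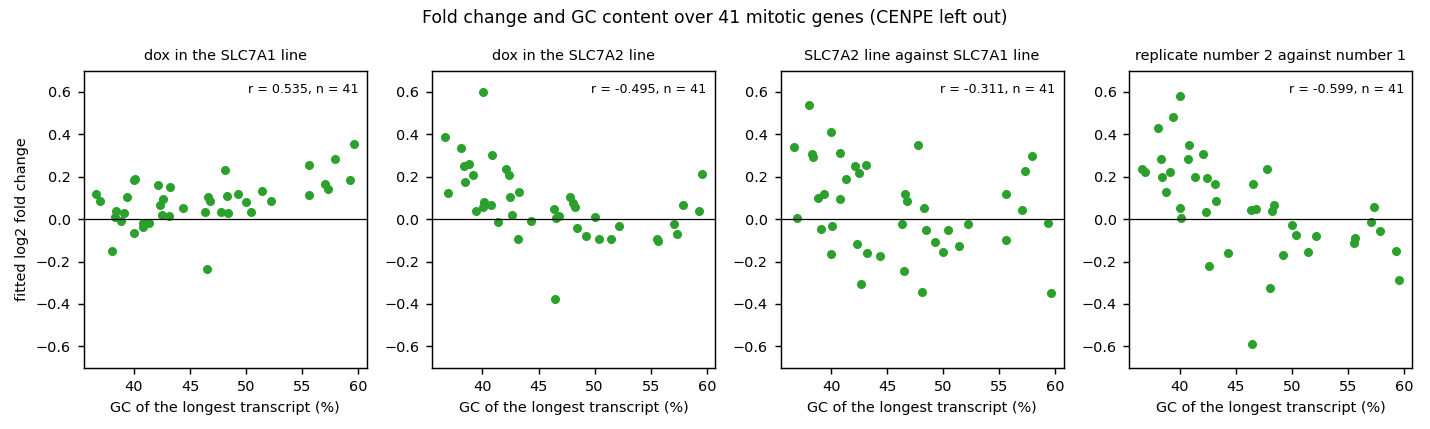
Fitted log2 fold change of 41 members (y axis) against the GC content of their longest protein-coding transcript (x axis, %) in 4 comparisons, 1 point per gene. Low-GC members lie lower in the panel for dox in the SLC7A1 line (r = 0.535) and higher in the other 3 (r = -0.495, -0.311 and -0.599).

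The GC content of the members ran along with these differences. GC of the longest protein-coding transcript in GENCODE v29 was 35.3% to 59.6% over the 42 members, with a median of 43.8%. For number 2 against number 1 the 21 members under that median had a median log2 fold change of 0.22, with 20 above 0, and the 21 others -0.07, with 7 above 0. With dox in the SLC7A2 line the medians were 0.17 (19 above 0) and -0.01 (10 above 0), and in the SLC7A1 line 0.04 (15 above 0) and 0.11 (20 above 0). The direction was thus opposite in the SLC7A1 line. Pearson's r between GC and fold change over the 42 members, whose values share libraries and depth, was -0.53 for number, -0.53 for dox in the SLC7A2 line, 0.45 for dox in the SLC7A1 line, -0.70 for the difference between the dox effects, -0.38 between the lines and -0.21 for dox across both lines. Over the 4860 genes that averaged 5 or more in log2 CPM it was -0.57, -0.40, 0.08, -0.42, -0.19 and -0.21 in the same order. Between log2 length and fold change over the members r was 0.40, 0.38, -0.06, 0.36, 0.35 and 0.29, again in that order. Whether GC and length act apart was not tested. After a GC correction, chosen after the data were seen, the member median with dox in the SLC7A2 line was 0.01 with 22 of 42 above 0, that for number was -0.02 with 20 above 0, and that for dox across both lines was 0.05 with 35 above 0. In the SLC7A1 line it stayed at 0.09, with 37 above 0. For the difference between the dox effects it was -0.09 with 8 above 0, where 17 were above 0 before the correction, and between the lines it was 0.02 with 23 above 0.

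Other genes of the division machinery were read beside the members. Further lists held together 119 genes, of which 118 were tested, and 99 of these were above 0 with dox across both lines, with a median of 0.08 and 0 called by edgeR or by DESeq2 with the block. By list, 13 of 20 subunits and regulators of the anaphase-promoting complex were above 0 (median 0.03), 17 of 19 condensin, cohesin and shugoshin genes (0.12), 21 of 27 other kinetochore genes (0.10), 21 of 23 other spindle and kinesin genes (0.06) and 27 of 29 other G2 and M regulators (0.09). UBE2S, which extends ubiquitin chains on substrates of that complex, had 0.25 ± 0.15, and RAD21, a cohesin subunit, 0.19 ± 0.21. Of the 118, 87 were above 0 in the SLC7A2 line and 83 in the SLC7A1 line. In the SLC7A1 line DESeq2 with the block called UBE2S, at 0.38, among 45 of all 17503 entries. G1/S and replication genes, such as PCNA at 0.07 ± 0.09 and MCM7 at -0.08 ± 0.09, were above 0 in 22 of 37 (median 0.02). Of 12 tested cell cycle brakes 8 were above 0 (median 0.10), with CCNG1, a cyclin induced by p53, at 0.11 ± 0.13. Between the lines 73 of 118 other mitotic genes and 17 of 37 G1/S genes were above 0, with 0 called by edgeR in each list, whereas 10 of 12 brakes were below 0 (median -0.13). With number as a block, DESeq2 called 8.46% of all entries between the lines. Among the other mitotic genes these were ANAPC7, SMC4, WAPL, SKA3, TACC3, CEP55 and LMNB1, higher in the SLC7A2 line, and CENPH, lower.

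Some member counts are uncertain, because no source used here says whether reads were counted by strand. In GENCODE v29, 10 members have an exon that overlaps an exon on the opposite strand, over more than 100 bases in 7 of them, among them PLK1, CCNA2, CDC25C, HMMR and PRC1. PRC1, NUSAP1 and BUB1B also share exon bases with a readthrough or overlapping gene on the same strand, 2716 of them for PRC1. KIF4A, a chromosome-bound kinesin, has a near-identical copy, KIF4B, listed at 0.03 to 0.2 TPM against 14.5 to 19.6 TPM for KIF4A.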

How the data were processed

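Poly(A) RNA of 8 libraries was compared. Per the file headers the authors deposited for each gene an expected count from RSEM, a TPM and an FPKM. The build hg38 and the tools RSEM 1.3.1, HISAT, DESeq2 1.4.5 and Bowtie2 2.3.4.3 stand, without a role, in the submitters' processing notes. The deposited FPKM was not used. Genes that a file does not list were set to 0 there. Levels are the authors' TPM. Expected counts were rounded, filtered with filterByExpr (minimum count 10, minimum total 15), scaled by TMM and tested over all 17503 entries by the quasi-likelihood method of edgeR 4.0.16 (R 4.3.3), at a Benjamini-Hochberg adjusted p of 0.05. The dox and line effects used an additive fit, the effects within lines and their difference a fit of 4 group means, and number was added to the group means. SE was derived from F and the size of the fold change. Library values on a log scale are log2 CPM with a prior count of 2. Same-numbered libraries of a line deviated together from their group means (correlations 0.702 and 0.771 over 4934 genes), so numbers pair libraries for dox across both lines. Across the lines the 4 same-numbered correlations were not all over 0.1, so numbers were not taken to pair libraries there. Alternatives were RLE scaling, DESeq2 1.42.0, no filter, limma 3.58.1 on log2(TPM + 1), the replicate block, left-out libraries and a GC correction (loess, span 0.5). The fits with the GC correction tested only the 11174 entries with a GC value. The members, lists and rule for named genes were chosen with earlier results of these data known. The rule allows full statistics for the called members, the 3 highest and 3 lowest per comparison and 17 core members. Within the lines and for the difference most core members are not printed, and many values carry an SE but no p. XLOC loci, 5927 of the entries, have no symbol here.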

Additional observations from a re-analysis of the deposited data

How the results depend on the processing

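For dox across both lines the count of called entries, 0 in edgeR, was 1 with DESeq2, 2 without a filter, 3 with the replicate block, 106 with DESeq2 and the block, and 1 without both SLC7A2-line libraries numbered 2. In the SLC7A1 line it was 9 with DESeq2, 2 without a filter, 2 with limma, and 2 and 45 with the block in edgeR and DESeq2. In the SLC7A2 line it was 10 with DESeq2, 2 with limma, 1 and 26 with the block, and 0 to 1 with 1 library left out. For the difference of effects it was 20 with DESeq2, 3 with limma and 21 with DESeq2 and the block. Between the lines it was 349 with DESeq2, 3 without a filter, 1 without both SLC7A2-line libraries numbered 2, and 0 to 1 with 1 library left out. The labels give numbers no meaning across the lines, where the 4 correlations of same-numbered libraries were 0.0382, 0.0861, 0.219 and 0.445. As a replicate block they gave 256 entries and 0 members in edgeR. With the GC correction as well, edgeR called 930 of the 11174 entries tested there and 4 of 42 members. Of these CDC20 (adjusted p = 0.0238), CENPA (0.0285) and PLK1 (0.042) were higher and PRC1 (0.0285) lower in the SLC7A2 line. With the block DESeq2 called 1480 entries (8.46%), with 5 members higher (PLK1, CCNB1, CDC20, CENPA, DLGAP5) and PRC1 lower. For number, 1 in edgeR, it was 1107 with DESeq2, 4 without a filter, 5 with limma, 8 with the GC correction, 67 without both SLC7A2-line libraries numbered 2, and 0 to 3 with 1 library left out.

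Member medians moved by more than the spread within groups (SD 0.0833) as follows. With 1 library left out they ran from 0.0005 to 0.17 for dox in the SLC7A1 line, from 0.0052 to 0.16 in the SLC7A2 line and from -0.0962 to 0.0186 for the difference. Without both SLC7A2-line libraries numbered 2 the SLC7A2 line gave -0.0296. On log2(TPM + 1) the median was 0.18 between the lines and 0.15 for number, where all entries had medians of 0.09 and 0.05. The block changed no member call for dox.

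Of the members that the rule allows, these changed sign for dox across both lines, between the lines or for number. For dox across both lines on log2(TPM + 1): CCNB1 0.0032, KIF20A 0.0379 and KIF2C 0.0163. For the same comparison without both SLC7A2-line libraries numbered 2: MAD2L1 -0.0098, CENPE -0.55 and ANLN -0.0238. With 1 library left out, dox across both lines ran from -0.0075 to 0.19 for CDK1, -0.0363 to 0.20 for BUB1, -0.0795 to 0.0163 for CCNB1, -0.0786 to 0.20 for MAD2L1, -0.0596 to 0.13 for UBE2C, -0.05 to 0.0228 for KIF20A, -0.0537 to 0.0139 for KIF2C, -0.63 to 1.42 for CENPE, -0.0102 to 0.42 for CENPF, -0.0175 to 0.0655 for BIRC5, -0.0396 to 0.57 for ANLN and -0.0999 to 0.22 for FOXM1. Between the lines CDK1 was -0.13 with the GC correction, -0.13 with it and the block, and -0.15 without both SLC7A2-line libraries numbered 2, where MAD2L1 was -0.14, BIRC5 0.0046 and FOXM1 -0.0072. On log2(TPM + 1) KIF20A was 0.0846, BIRC5 0.11 and TOP2A 0.0982, and BIRC5 was 0.0071 with the GC correction and 0.0074 with the block as well. With 1 library left out the line values ran from -0.11 to 0.0931 for CDK1, -0.0286 to 0.25 for MAD2L1, -0.0679 to 0.0144 for BIRC5 and -0.14 to 0.0914 for TOP2A. For number, the GC correction gave -0.0655 for CDK1, 0.0754 for CDC20, -0.0239 for TOP2A and 0.0028 for FOXM1, and log2(TPM + 1) gave 0.0358 for CDC20, 0.0756 for UBE2C, 0.0096 for BIRC5 and 0.0082 for FOXM1. With 1 library left out UBE2C ran from -0.16 to 0.12, MKI67 from -0.0221 to 0.10 and FOXM1 from -0.32 to 0.0911. The cause of these changes was not tested. With 2 libraries in a group, and replicates that may be technical, differences of about 0.2 on the log2 scale were not resolved for most members.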
